A study of Mus musculus with 46 samples.

Results

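Inflammasomes are cytosolic complexes that form when a sensor detects a microbial product, DNA in the cytosol or damage to the cell. Most sensors act through the adaptor ASC, the product of Pycard, which gathers and activates caspase-1, and the NAIP proteins, which bind bacterial flagellin or parts of bacterial secretion systems, act through NLRC4. Active caspase-1 cleaves the precursors of the cytokines IL-1 beta and IL-18, and it cleaves gasdermin D, whose fragment forms pores in the cell membrane. The pathway is known best from macrophages and other innate cells, where the end of it is a lytic cell death called pyroptosis. Here 10 genes of this pathway are described, of 19521 genes in the table of deposited counts: the NAIP sensors Naip2, Naip5 and Naip6, their partner Nlrc4, the sensors Nlrp3 and Aim2, the adaptor Pycard, the caspases Casp1 and Casp4, and the pore former Gsdmd. They were picked by symbol, with results of the same counts already known, so that every difference given for them below is a description, and the calls attached to it support nothing beyond it.

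The RNA was from sorted primary T cells of C57BL/6 mice, in 40 libraries of 14 groups. The mice either carried LMO2 as a knock-in under elements of human CD2, a gene of T cells (genotype hCD2-LMO2, here transgenic or TG), or were wild type (WT). The LMO2 protein links DNA-binding factors into larger complexes in early blood cells, and LMO2 is an oncogene of T-cell leukaemia. Transgenic and wild-type thymocytes were compared at the stages DN3, total DN, DP, CD4SP and CD8SP, with 3 libraries per genotype and stage. DN cells lack both CD4 and CD8, DN1 and DN3 are early subsets of them, DP cells carry both coreceptors, and the single-positive cells (SP) carry 1 of them. For DN1 there were 3 libraries of transgenic cells but 1 of wild-type cells. CD4+ and CD8+ T cells of the spleen came from transgenic mice alone, again with 3 libraries per group. The age and sex of the mice, and whether a library came from 1 animal or from pooled animals, are not stated in the labels. The spread is thus that between these samples, which may be technical in part.

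Levels are CPM, read counts relative to library size, scaled by trimmed mean of M-values (TMM) over all 40 libraries. They are given by replicate, in the order 1, 2, 3. Library totals lay between 17211426 and 28842773 reads. Fold changes are log2 values, each followed by its standard error. A gene was called where edgeR's quasi-likelihood test gave an adjusted p (Benjamini-Hochberg, over all genes tested) under 0.05. In sorted bulk samples, fewer cells that express a gene and less of its RNA per cell cannot be told apart.

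Several libraries stood apart from their labels or their group. Lmo2 was between 16.5 and 87.1 CPM in every transgenic library except DP replicate 3, where it was 0.397 CPM. In wild-type libraries past DN1 it was between 0.122 and 4.42 CPM, and in the wild-type DN1 library 30.7 CPM. The sources do not say whether these counts include reads of the knock-in LMO2, so that an Lmo2 level may be that of the mouse gene, of the knock-in or of both. In transgenic CD4SP cells, replicate 1 had 191 CPM of Cd4, while replicate 2 had 3070 CPM of Cd8a and 6438 CPM of Rag1, a recombinase gene of immature thymocytes. Il2ra, a marker of DN3 cells, was at 349 and 208 CPM in replicates 1 and 3 of that group, against 28.4 to 47.6 CPM in wild-type CD4SP. In transgenic splenic CD8 cells, replicate 1 had a summed level of 12 myeloid markers of 4656 CPM, against 523 and 441 CPM in replicates 2 and 3, and Cd3e of 116 CPM, against 693 and 702 CPM. Splenic CD4 replicate 3 had 3943 CPM of the same myeloid markers, against 1021 and 803 CPM in replicates 1 and 2. Erythroid markers summed to 58630 CPM in that library and to 22190 CPM in wild-type DN replicate 3, against 1753 and 1545 CPM in wild-type DN replicates 1 and 2. The columns of 12 libraries carry a final letter N in their names, whose meaning is not given.

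The Naip genes lie side by side on chromosome 13, in GRCm38.p6 coordinates of RefSeq. Naip2 (identifier 17948) is at chr13:100144063-100202122, Naip5 (17951) at chr13:100211735-100250930 and Naip6 (17952) at chr13:100281121-100316616, with gaps of 9612 and 30190 bases between them. Casp1 (12362; chr9:5298517-5307281) and Casp4 (12363; chr9:5308849-5336791) are neighbours as well, 1567 bases apart. Aim2 (383619) is at chr1:173349547-173466040, Nlrc4 (268973) at chr17:74426255-74459144, Nlrp3 (216799) at chr11:59541569-59566955, Pycard (66824) at chr7:127991373-127993867 and Gsdmd (69146) at chr15:75862144-75867408.

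The start regions of the 3 Naip genes are shown because these genes are the members with higher counts in transgenic DN3 cells, and because near-identical copies can share reads. Each window runs from 250 bases before to 50 bases after a RefSeq start, 5′ to 3′ on the strand of the gene (minus for all 3). For Naip2 and Naip6 that start is at the outer end of the gene span given above. For Naip5 it lies inside the span. Capitals in the first pair mark runs of 12 or more bases that the Naip2 and Naip5 windows share. The Naip6 window holds no such run.
Naip2, chr13:100202073-100202372: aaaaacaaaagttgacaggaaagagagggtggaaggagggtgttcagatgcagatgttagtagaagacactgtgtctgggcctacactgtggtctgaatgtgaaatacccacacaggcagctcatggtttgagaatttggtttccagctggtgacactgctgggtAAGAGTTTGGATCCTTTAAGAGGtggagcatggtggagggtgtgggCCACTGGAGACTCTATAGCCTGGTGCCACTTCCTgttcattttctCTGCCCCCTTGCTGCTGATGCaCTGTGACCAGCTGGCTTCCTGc
Naip5, chr13:100247287-100247586: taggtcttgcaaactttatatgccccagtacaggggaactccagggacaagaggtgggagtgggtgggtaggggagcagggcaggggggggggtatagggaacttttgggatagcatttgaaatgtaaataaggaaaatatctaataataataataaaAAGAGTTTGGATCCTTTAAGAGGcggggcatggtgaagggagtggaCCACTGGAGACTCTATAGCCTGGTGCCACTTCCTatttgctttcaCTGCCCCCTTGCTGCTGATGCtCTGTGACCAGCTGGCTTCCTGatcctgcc
Naip6, chr13:100316567-100316866: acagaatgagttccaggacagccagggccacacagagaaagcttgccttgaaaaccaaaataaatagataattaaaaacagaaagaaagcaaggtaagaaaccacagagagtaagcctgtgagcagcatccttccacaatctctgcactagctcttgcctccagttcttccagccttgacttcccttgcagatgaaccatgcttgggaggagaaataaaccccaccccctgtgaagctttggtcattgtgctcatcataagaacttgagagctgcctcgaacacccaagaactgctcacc
The longest run shared by the Naip2 and Naip5 windows was 34 bases, and 99 bases of each window were in such runs. Their best local alignment had 123 identical bases in 134 columns (91.8%), around the start site. Most of each window lies before the start, and the likeness of the transcripts, from which reads come, was not examined. How the authors' counting placed reads that fit several copies is not given. Each Naip level below is thus uncertain by what it could have gained from or lost to the others.

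Aim2 and Casp1 had large decreases in transgenic DN3 cells, and their windows, both on the plus strand, are shown with capitals on the E-box motif CANNTG, the letters that the helix-loop-helix partners of LMO2 are known to bind.
Aim2, chr1:173420354-173420653: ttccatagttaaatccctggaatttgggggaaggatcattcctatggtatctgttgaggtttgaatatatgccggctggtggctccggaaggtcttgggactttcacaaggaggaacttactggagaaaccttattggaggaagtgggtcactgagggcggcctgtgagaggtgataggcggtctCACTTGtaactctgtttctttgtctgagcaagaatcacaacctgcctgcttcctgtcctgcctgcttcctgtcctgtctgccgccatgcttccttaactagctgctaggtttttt
Casp1, chr9:5298267-5298566: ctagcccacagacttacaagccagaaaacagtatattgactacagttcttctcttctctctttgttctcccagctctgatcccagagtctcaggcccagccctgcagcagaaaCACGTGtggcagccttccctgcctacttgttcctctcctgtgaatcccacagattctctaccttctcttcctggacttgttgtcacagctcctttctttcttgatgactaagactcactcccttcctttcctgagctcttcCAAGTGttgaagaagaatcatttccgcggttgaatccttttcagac
The search covered both strands, on which this motif reads alike when its middle bases are free. Aim2 had 1 E-box, 65 bases before the start used, which lies inside the gene span given above and not at its outer end. Casp1 had 2, of which the first began 137 bases before its start, the first base of its span. An E-box stood in 72.3% of the 32851 start windows of the same length. Among the other members Naip2 and Nlrc4 had 4 each, Naip5 and Pycard 2 each, and Naip6 had 1. Casp4 had 1 in each of its windows, and Nlrp3 had 1 in 1 window and 0 in its other. The GATA motif GATAA, searched likewise, was in neither the Aim2 nor the Casp1 window and in 25.4% of all. Windows of Casp4, Naip6 and Nlrp3 held it. A start window was found for 9 of the 10 genes, Gsdmd being without one.

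**Figure D1:**
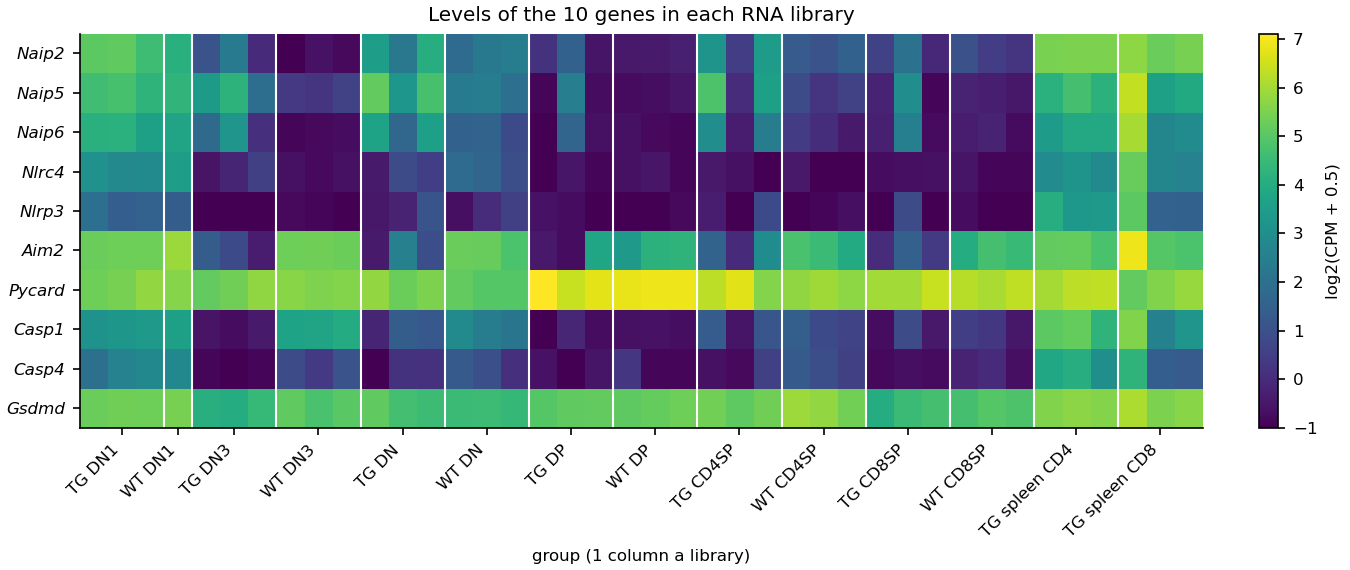
Level of each of the 10 genes (rows) in each of the 40 RNA libraries (columns, grouped by genotype and stage, replicates 1 to 3 from left to right), as log2(CPM + 0.5) on the colour scale. Pycard and Gsdmd were present in every group, whereas the sensors and caspases were low in most thymic groups past DN1, apart from Aim2 in wild-type cells, Casp1 in wild-type DN3 and DN cells and the Naip genes in some transgenic libraries.

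The members differed in level from each other. Per transcript length (the authors' FPKM), the adaptor Pycard averaged 21.8 ± 5.13 in transgenic DN3 cells and 26.1 ± 1.33 in wild-type DN3 cells, and Gsdmd averaged 11.2 ± 1.92 and 20.8 ± 2.50 in the same groups (SD, n = 3 each). Aim2 came next in wild-type DN3 cells, with 0.417 ± 0.320 FPKM in transgenic and 15.8 ± 1.17 FPKM in wild-type cells, followed by Casp1 with 0.133 ± 0.0551 and 10.7 ± 1.34 FPKM. The other 6 genes were at or below 2.27 FPKM in both genotypes at that stage. Nlrc4 was at 0.137 FPKM in transgenic and 0.0333 FPKM in wild-type DN3 cells, and Nlrp3 had no read in the transgenic and 3 reads in the wild-type DN3 libraries.

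In DN3, the stage at which the beta chain of the T-cell receptor is selected, 8 of the 10 genes passed the filter on low counts, and Nlrc4 and Nlrp3 did not. The 3 Naip genes were called higher in transgenic cells, beside 23.4% of all 12037 genes tested that were called higher. Aim2, Casp1, Casp4 and Gsdmd were called lower, beside 22.2% of all genes. Pycard was not called. With library totals in place of TMM, 2217 genes were called higher and 3725 lower, against 2822 and 2675 with TMM, and the same number of members, 7, was called. The 7 calls stood in each of the 6 fits that left out 1 library.

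Naip5, which binds flagellin, had 10.2, 18.6 and 3.33 CPM in transgenic DN3 cells, against 0.775, 0.679 and 0.977 CPM in wild-type DN3 cells. The groups did not overlap, and the log2 fold change was 3.73 ± 0.61. Naip6, a further flagellin sensor, had 2.99, 8.97 and 0.579 CPM in transgenic cells, against 0.0369, 0.0754 and 0.109 CPM in wild-type cells, a fold change of 5.76 ± 1.14. Naip2, which binds the inner rod of bacterial secretion systems, had 1.62, 4.41 and 0.470 CPM in transgenic cells, against 0, 0.151 and 0.0724 CPM in wild-type cells, a fold change of 4.81 ± 1.04. Naip6 and Naip2 each had only 6 reads in the wild-type group, so the size of their fold changes is uncertain. In all 3 genes transgenic replicate 2 was the highest and replicate 3 the lowest. Naip1, the fourth sensor of the family on the list of other pathway genes, stayed at or below 0.105 CPM in all 6 libraries.

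**Figure D2:**
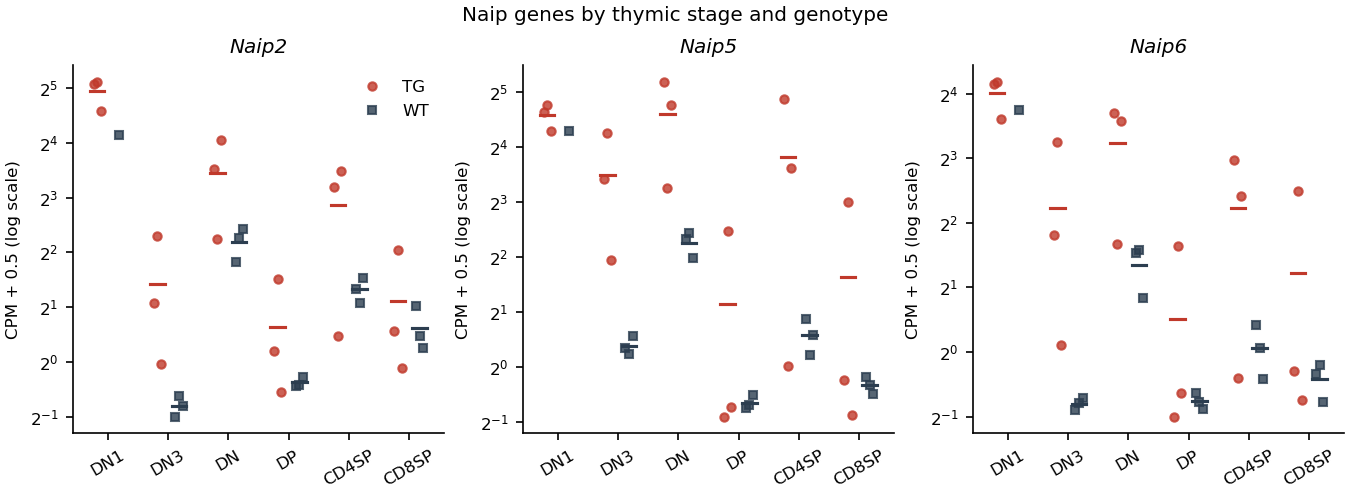
Naip2, Naip5 and Naip6 by thymic stage, 1 point per library (TG circles, WT squares), with a bar at the group mean where there are 3 libraries; the vertical axis is CPM + 0.5 on a log scale. All transgenic DN3 libraries lie above the wild-type ones, while in DP, CD4SP and CD8SP some transgenic libraries lie high and others near the wild-type level.

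In total DN cells all 10 genes were tested. Naip5 was called higher and Aim2 lower in transgenic cells, beside 7.47% of 12509 genes called higher and 4.89% called lower. Naip5 had 35.6, 9.07 and 26.4 CPM in transgenic DN cells, against 4.48, 4.94 and 3.43 CPM in wild-type DN cells, a fold change of 2.41 ± 0.48. Every transgenic library lay above every wild-type library. Naip2, with a fold change of 1.30 ± 0.47, and Naip6, with 2.06 ± 0.59, were not called, and in Naip2 transgenic replicate 2, at 4.24 CPM, lay within the wild-type range of 3.05 to 4.91 CPM. The calls of Naip5 and Aim2 were both lost without transgenic replicate 3 and without any 1 wild-type library, and without transgenic replicate 2 there were 5 calls among the members in place of 2. With a term for the letter N in the column names, Naip5 moved to 1.03 and Aim2 to -2.75, neither of them called.

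At the later thymic stages the Naip genes were high in some transgenic libraries and not in others. In CD4SP cells Naip5 had 28.6, 0.519 and 11.7 CPM in the transgenic libraries, against 1.34, 0.661 and 1.01 CPM in the wild-type libraries. Replicates 1 and 3 thus lay above the wild-type range and replicate 2 below it. The fold changes there were 3.75 ± 1.20 for Naip5, 2.92 ± 1.09 for Naip6 and 1.76 ± 0.82 for Naip2, none of which was called. Without transgenic replicate 2 they were 4.32, 3.47 and 2.27, and all 3 were called. In CD8SP cells Naip5 was at 0.349, 7.44 and 0.0477 CPM in the transgenic libraries, against 0.385, 0.296 and 0.217 CPM in the wild-type libraries. In DP cells it was at 0.0378, 5.02 and 0.108 CPM, against 0.0958, 0.122 and 0.203 CPM. At both stages transgenic replicate 2 alone stood above the wild-type libraries. Naip6 showed the same order, with 5.12 CPM in replicate 2 of transgenic CD8SP cells and 2.61 CPM in replicate 2 of transgenic DP cells.

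The libraries with the final letter N in their column name were those with the high Naip levels in transgenic thymocytes past DN1, wherever a group held both kinds. They were replicates 1 and 3 in transgenic DN and CD4SP cells and replicate 2 in transgenic DP and CD8SP cells. No DN3 or DN1 library carries the letter. Among wild-type libraries, CD8SP replicate 1 and DP replicate 1 carry it, and their Naip5 levels were 0.385 and 0.0958 CPM. Between the libraries without the letter, Naip5 was at 9.07 CPM in transgenic DN cells, against 3.43 to 4.94 CPM in wild-type DN cells. Likewise without the letter it was at 0.519 CPM in transgenic CD4SP cells, against 0.661 to 1.34 CPM in wild-type CD4SP cells. The summed level of the myeloid markers moved with some of these libraries. It was 160, 54.4 and 292 CPM in transgenic CD4SP replicates 1, 2 and 3, against 27.0 to 38.9 CPM in wild-type CD4SP, and 243 CPM in transgenic CD8SP replicate 2, against 21.6 to 47.3 CPM in wild-type CD8SP. In transgenic DN it was 42.3, 133 and 279 CPM in replicates 1, 2 and 3, against 115 to 178 CPM in wild-type DN, and the library with the most Naip5, replicate 1, had the least. In transgenic DP the myeloid sum was 43.8, 66.0 and 41.2 CPM, against 29.9 to 59.3 CPM in wild-type DP. The sum of 7 dendritic cell markers was 178, 78.5 and 210 CPM in transgenic CD4SP, against 65.0 to 83.3 CPM in wild-type CD4SP. In CD8SP that sum was 61.3, 270 and 56.2 CPM, against 53.0 to 111 CPM. In DP it was 48.1, 78.6 and 42.7 CPM, against 27.35 to 37.8 CPM, and in DN 124, 164 and 180.5 CPM, against 105.5 to 125 CPM. With a term for the letter in the fit, the fold change of Naip5 in DN was 1.03 and not called, and in CD4SP those of Naip2, Naip5 and Naip6 turned negative, at -1.16, -0.93 and -1.05. In CD4SP this term leaves transgenic replicate 2 alone against the wild-type libraries. The part of the markers in the Naip levels was not tested. In DN3 the myeloid sum was 12.8 to 15 CPM in transgenic and 19.7 to 24.1 CPM in wild-type libraries. Of its 12 markers, 8 to 9 had reads in each transgenic and 9 to 10 in each wild-type DN3 library. Cd14 and S100a8 had no read in any, S100a9 had 1 read in 1 wild-type library, and Csf1r was at or below 0.350 CPM. Lyz2 was at 0.832 to 2.10 CPM in transgenic and 7.97 to 10.7 CPM in wild-type libraries, Cd68 at 1.80 to 2.45 CPM and 3.24 to 5.35 CPM, and Cebpb, which T cells may express too, at 6.48 to 7.11 CPM and 3.81 to 5.79 CPM.

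Across all groups, Naip2 was highest in transgenic splenic CD4 cells at 45 ± 0.496 CPM and splenic CD8 cells at 44.7 ± 7.14 CPM, whose ranges overlapped. Transgenic DN1 cells followed with 30.3 ± 5.84 CPM, above the wild-type DN1 library at 17.2 CPM, and then transgenic DN cells with 10.5 ± 5.98 CPM. Among the next 7 groups neighbours overlapped, and wild-type DP cells at 0.270 ± 0.0478 CPM and wild-type DN3 cells at 0.0744 ± 0.0754 CPM were the lowest. Naip5 and Naip6 were highest in splenic CD8 cells only through replicate 1, which had 82.5 CPM of Naip5 and 66.0 CPM of Naip6, against 11.7 and 14.8 CPM of Naip5 and 6.08 and 6.97 CPM of Naip6 in replicates 2 and 3. Wild-type DP cells were the lowest group for Naip5, at 0.140 ± 0.0558 CPM, and next to the lowest for Naip6.

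Nlrc4, which joins NAIP proteins to caspase-1, was low in thymocytes past DN1. In DN3 it had 0.176, 0.385 and 0.940 CPM in transgenic libraries, against 0.148, 0.0754 and 0.145 CPM in wild-type libraries. The groups did not overlap, but the gene did not pass the filter and has no test. In total DN cells it had 0.258, 1.30 and 0.913 CPM in transgenic libraries, against 3.08, 2.61 and 1.44 CPM in wild-type libraries, a fold change of -1.57 ± 0.62 that was not called. All transgenic DN libraries were lower than all wild-type ones, the opposite order to that of Naip5. The B-cell marker sum was 25.9, 230 and 142 CPM in these transgenic libraries, against 306, 248 and 141 CPM in the wild-type libraries, and within each genotype Nlrc4 had the same order; the part of other cells was not tested. Past these stages every group mean was at or below 0.129 CPM in the thymus. The levels were highest in DN1, with 7.18 ± 0.826 CPM in transgenic cells and 11.3 CPM in the wild-type library, and in the spleen.

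Nlrp3, a sensor of disturbed ion balance and of cell damage, was close to the limit of counting in the thymus. It had no read in the 3 transgenic DN3 libraries and 3 reads in the wild-type DN3 libraries. In DN1 it was at 2.68 ± 0.627 CPM in transgenic cells, against 2.14 CPM in the wild-type library. No other thymic group had a mean above 0.739 CPM, which was that of transgenic DN cells. Of the transgenic CD8SP libraries only replicate 2, at 1.29 CPM, held any read.

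Aim2, whose product binds double-stranded DNA in the cytosol, was lower in transgenic cells in most of the thymus past DN1. In DN3 it had 2.11, 1.26 and 0.289 CPM in transgenic libraries, against 39.7, 40.1 and 38.9 CPM in wild-type libraries, a fold change of -4.99 ± 0.47. The wild-type libraries differed by about 1 CPM, and the transgenic ones lay far below them. In DN it had 0.258, 5.27 and 1.44 CPM in transgenic libraries, against 38.0, 37.2 and 27.5 CPM in wild-type libraries, a fold change of -3.90 ± 0.89. Here too the groups did not overlap.

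In CD8SP cells Aim2 had 0.523, 2.32 and 0.810 CPM in transgenic libraries, against 15.6, 26.0 and 21.7 CPM in wild-type libraries. The fold change was -4.12 ± 0.55, and Aim2 was called lower, the only call among 5 members tested, beside 2.36% of 11697 genes called lower and 2.09% called higher. That call was lost without wild-type replicate 1 or 2. In CD4SP cells it had 2.48, 0.482 and 7.19 CPM in transgenic libraries, against 27.0, 22.4 and 15.1 CPM in wild-type libraries. All transgenic libraries were below all wild-type ones, yet the fold change of -2.66 ± 0.84 was not called. It was called without transgenic replicate 2, at -2.17, and without replicate 3, at -3.84, and not without replicate 1. None of the 8 members tested in CD4SP was called, beside 15% of 12073 genes called higher and 11% called lower. At an unadjusted p under 0.05 there were 3 of the 8, and DESeq2 called 3. In CD4SP transgenic replicate 2, the only transgenic library there without the letter N, had the lowest Aim2. With a term for the letter, which leaves that library alone against the wild-type ones, the fold change was -5.45.

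In DP cells, 1 library labelled transgenic had neither the Lmo2 level of its group nor its low Aim2. Transgenic replicates 1 and 2, with 80.7 and 71.9 CPM of Lmo2, had 0.227 and 0.103 CPM of Aim2. Transgenic replicate 3, with 0.397 CPM of Lmo2, had 13.4 CPM of Aim2, within the wild-type range of 9.87 to 19 CPM. The fold change of Aim2 was -1.74 ± 1.34 over all 6 libraries and -6.48 without replicate 3, where it was called. With all libraries, 0% of 11649 genes were called higher and 0% lower in DP, 2450 genes had an unadjusted p under 0.05 in edgeR's quasi-likelihood test, and DESeq2 called 618. Of the members, Aim2, Pycard and Gsdmd were tested, none was called, and none had an unadjusted p under 0.05. In DN1, where wild-type cells also express Lmo2, Aim2 had 37.8, 39.4 and 39.4 CPM in transgenic libraries, against 59.1 CPM in the wild-type library. Its fold change was -0.61 ± 1.25.

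**Figure D3:**
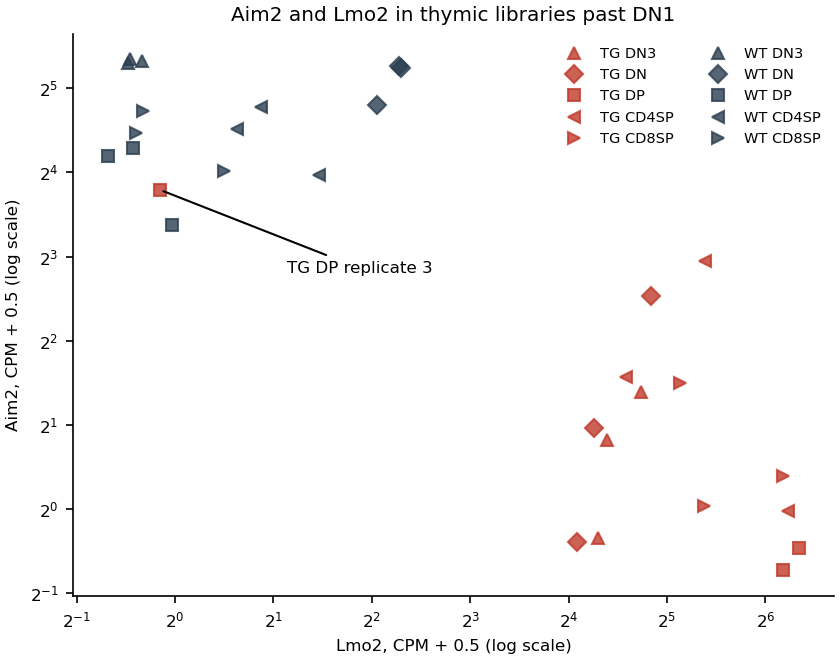
Aim2 (vertical) against Lmo2 (horizontal), each as CPM + 0.5 on a log scale, in the thymic libraries of stages past DN1; colour gives the genotype and shape the stage. The other transgenic libraries lie at higher Lmo2 and lower Aim2 than the wild-type libraries of their stage, and transgenic DP replicate 3, with 0.397 CPM of Lmo2 and 13.4 CPM of Aim2, lies among the wild-type libraries.

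By group, Aim2 was highest in splenic CD8 cells at 59.6 ± 52.6 CPM, owing to replicate 1 at 120.3 CPM, and in the wild-type DN1 library at 59.1 CPM. Wild-type DN3 (39.6 ± 0.605 CPM), transgenic DN1 (38.8 ± 0.950), wild-type DN (34.2 ± 5.87) and splenic CD4 cells (32.9 ± 4.91) followed, each overlapping the next. Wild-type CD4SP, CD8SP and DP cells came after them at 21.5 ± 5.97, 21.1 ± 5.19 and 15.6 ± 4.99 CPM. The last 5 groups were all transgenic, from 4.57 ± 7.63 CPM in DP to 1.22 ± 0.967 CPM in CD8SP cells, and overlapped one another.

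Pycard, the adaptor ASC, was among the members least apart between genotypes. In DN3 it had 35.3, 40.1 and 53.6 CPM in transgenic libraries, against 50.6, 45.6 and 47.8 CPM in wild-type libraries, a fold change of -0.14 ± 0.16. The groups overlapped. Unlike the other members it was highest in DP, with 111 ± 25.7 CPM in transgenic and 117 ± 3.13 CPM in wild-type cells, and lowest in wild-type DN cells, with 32.4 ± 2.67 CPM. Over the 40 libraries the Pearson correlation of its log2(CPM + 0.5) with the other members was between -0.548 for Naip5 and 0.213 for Gsdmd, which describes these libraries, 3 of most groups and not independent of each other.

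Casp1, the caspase of the canonical inflammasomes, had the largest decrease in DN3 among the members given a fold change. It had 0.176, 0.105 and 0.253 CPM in transgenic libraries, 15 reads in all, against 12.4, 12.9 and 15.3 CPM in wild-type libraries. The fold change was -6.20 ± 0.30, with a range of -6.53 to -5.92 when 1 library was left out. Casp4, called caspase-11 in the mouse and known to bind bacterial lipopolysaccharide, had 0.0352, 0 and 0.0362 CPM in transgenic DN3 libraries, which were 2 reads, against 1.37, 0.792 and 1.59 CPM in wild-type libraries, which were 102 reads. It was called lower, and at so few reads no fold change is given. In total DN cells Casp1 had 0.388, 2.10 and 1.88 CPM in transgenic libraries, against 6.76, 4.97 and 3.94 CPM in wild-type libraries. The groups did not overlap, and the fold change of -1.89 ± 0.59 was not called.

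In DP, the low level of Casp1 in wild-type cells was met by a low level in transgenic cells: 0, 0.410 and 0.108 CPM in transgenic libraries, against 0.144, 0.163 and 0.122 CPM in wild-type libraries. The genotype difference of Casp1 in DN3 was therefore set against that in DP by an interaction term over 12 libraries. The DP side of it rests on 11 reads of Casp1 in the transgenic and 10 in the wild-type libraries. The interaction was -6.35 ± 1.06, and Casp1 was called lower, the only call among 8 members tested, beside 4.88% of 12451 genes called lower and 5.29% called higher. With library totals 996 genes were called lower and 548 higher, against 607 and 659 with TMM. The interaction of Aim2 was -3.26 ± 1.64 and not called, and without transgenic DP replicate 3 it was 1.44. Between CD4SP and CD8SP, the genotype differences of 8 members were tested against each other and none was called, beside 0.024% of 12507 genes called higher and 0.008% called lower. No member had an unadjusted p under 0.05 there in edgeR's quasi-likelihood test, and DESeq2 called none of the members.

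Gsdmd, the substrate that forms the pore, had 17.0, 15.9 and 21.3 CPM in transgenic DN3 libraries, against 34.3, 27.1 and 32.4 CPM in wild-type libraries. The groups did not overlap, and the fold change was -0.77 ± 0.15, the smallest of the called changes in DN3. At the other thymic stages Gsdmd was not called between genotypes. Its group means lay between 18 CPM in transgenic DN3 and 54.7 CPM in splenic CD8 cells, and those of Pycard between 32.4 CPM in wild-type DN and 117 CPM in wild-type DP cells.

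**Figure D4:**
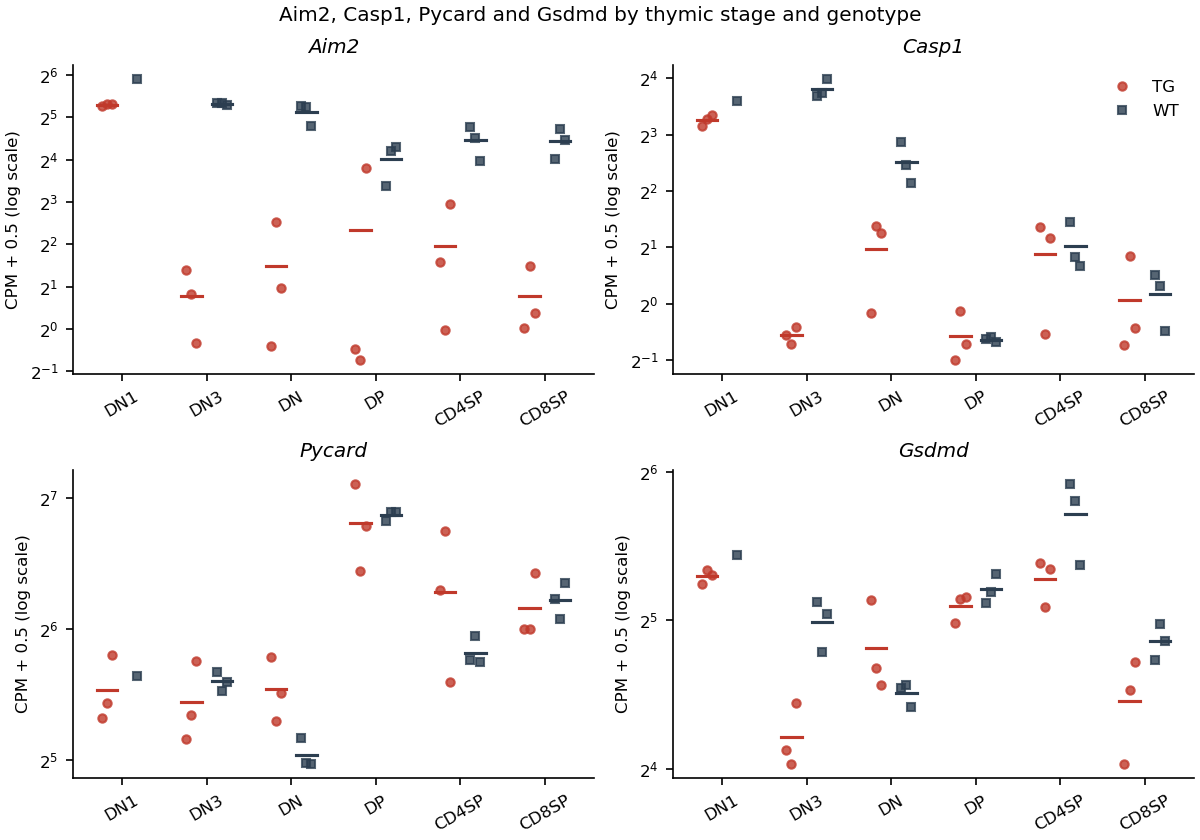
Aim2, Casp1, Pycard and Gsdmd by thymic stage, 1 point per library (TG circles, WT squares), with a bar at the group mean where there are 3 libraries; the vertical axis is CPM + 0.5 on a log scale. Aim2 is far apart by genotype in DN3 and DN, and Casp1 in DN3, while Casp1 is less far apart in DN. In DN1 the transgenic libraries lie close to the wild-type one for both genes. Gsdmd is apart by less than 1 log2 unit in DN3, and Pycard overlaps between genotypes in DN3.

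In DN1 all 10 genes were tested in a fit of all 40 libraries, which assumes that the lone wild-type library varies like the other groups. None was called, and 0% of 14845 genes were called higher and 0% lower. In edgeR's quasi-likelihood test 157 genes had an unadjusted p under 0.05, none of them a member, and DESeq2 called 3 genes, also none of them a member. The fold changes were 0.81 ± 1.04 for Naip2 and -0.65 ± 1.02 for Nlrc4. Both DN1 groups had higher mean levels of Naip2, Naip6, Nlrc4, Nlrp3 and Casp4 than any other thymic group. Markers of other cell types were high in DN1 too. The myeloid sum was 831 to 1173 CPM in transgenic libraries and 892 CPM in the wild-type library, and the sum of 7 B-cell markers 675 to 1034 CPM and 1615 CPM. The sum of 7 dendritic cell markers was 571 to 654 CPM in transgenic libraries and 532 CPM in the wild-type library, and that of 5 markers of NK and innate lymphoid cells 379 to 501 CPM and 303 CPM. The part of other cell types in these DN1 levels was not tested.

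Among wild-type thymocytes, Naip5, Aim2, Casp1 and Casp4 were called lower in DP than in DN3 cells, and Pycard was called higher. Of 6 members tested between DP and DN3, 1 was called higher and 4 lower, beside 28.6% of 11953 genes called higher and 31.4% called lower (2717 and 4398 genes with library totals, against 3422 and 3749). Casp1 averaged 0.143 ± 0.0206 CPM in DP and 13.5 ± 1.55 CPM in DN3 (SD, n = 3 each), a fold change of -6.52 ± 0.27 and the largest of them. Casp1 had only 10 reads and Casp4 17 in DP, so the size of their fold changes is uncertain. Naip5 was lower in DP, with a fold change of -2.48 ± 0.44 that rests on 10 reads in DP. Aim2 was lower with a fold change of -1.35 ± 0.22, at 15.6 ± 4.99 CPM in DP and 39.6 ± 0.605 CPM in DN3. Casp4 was lower with a fold change of -2.29 ± 0.81, a call lost without any 1 of the 3 DN3 libraries and without DP replicate 2 or 3. Pycard was higher by 1.28 ± 0.13. Gsdmd, at 36.5 ± 2.57 CPM in DP and 31.3 ± 3.74 CPM in DN3, was tested and not called, and the other 4 genes did not pass the filter.

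In wild-type CD4SP cells several of these genes were higher than in DP cells. Between CD4SP and DP, 7 members were tested, and Naip2, Naip5, Casp1, Casp4 and Gsdmd were called higher and Pycard lower, beside 23.4% of 11923 genes called higher and 20.5% called lower. Casp1 averaged 1.53 ± 0.602 CPM in CD4SP and 0.143 ± 0.0206 CPM in DP, a fold change of 3.43 ± 0.44, and stayed far below its DN3 level. Naip2 was higher by 2.92 ± 0.32 and Naip5 by 2.83 ± 0.46, and Gsdmd by 0.57 ± 0.15, with 52.1 ± 10 CPM in CD4SP and 36.5 ± 2.57 CPM in DP. Casp4 was higher by 2.55 ± 0.87, a call lost without any 1 CD4SP library and without DP replicate 2 or 3. In the DP group Casp1 and Naip5 had only 10 reads each, Casp4 17 and Naip2 19, so the size of their fold changes is uncertain. The call of Gsdmd was lost without CD4SP replicate 1 or 2 and without DP replicate 2 or 3. Pycard changed by -1.004 ± 0.11, and Aim2, at 0.52 ± 0.29, was not called.

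Between CD8SP and DP, 4 members were tested. Naip2 was called higher, at 1.93 ± 0.46, and Pycard lower, at -0.63 ± 0.14, beside 20.8% of 11691 genes called higher and 16.9% called lower. Naip2 had 1.54, 0.886 and 0.694 CPM in CD8SP, against 0.240, 0.244 and 0.325 CPM in DP. Its call was lost without CD8SP replicate 1 or DP replicate 2, and it rests on 19 reads in DP.

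In transgenic mice Naip2, Nlrc4, Aim2, Casp1 and Casp4 were called higher in splenic T cells than in thymic single-positive cells of the same coreceptor, while Naip5 and Naip6 were not called in either comparison. Of 10 members tested between splenic CD4 cells and CD4SP thymocytes, 6 were called higher and none lower, beside 12.5% of 12578 genes called higher and 12% called lower. Casp1 had 33.4, 35.8 and 18.8 CPM in splenic CD4 cells, against 2.06, 0.186 and 1.75 CPM in CD4SP cells, a fold change of 4.44 ± 0.84. Nlrc4 had 7.01, 8.73 and 6.69 CPM in the spleen, against 0.229, 0.148 and 0 CPM in the thymus, a fold change of 5.75 ± 0.88. Casp4 was higher by 5.09 ± 0.99, Nlrp3 by 4.54 ± 1.25, Aim2 by 3.28 ± 0.86 and Naip2 by 2.72 ± 0.79. In the CD4SP group Nlrc4 had only 9 reads, Casp4 21 and Nlrp3 28, so the size of their fold changes is uncertain. Without splenic CD4 replicate 1 no member was called, without replicate 2 only 1, without replicate 3 only 3, and without CD4SP replicate 1 only 2. The fold changes themselves kept their sign, and that of Casp1 lay between 3.90 and 4.96 over these fits.

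Of 10 members tested between splenic CD8 cells and CD8SP thymocytes, 6 were called higher and none lower, beside 17.2% of 12185 genes called higher and 20.1% called lower. Naip2 had 52.3, 38.1 and 43.6 CPM in splenic CD8 cells, against 0.976, 3.61 and 0.429 CPM in CD8SP cells, a fold change of 4.68 ± 0.78. Nlrc4 had 36.9, 6.15 and 5.54 CPM, against 0.105, 0.129 and 0.143 CPM, and a fold change of 6.92 ± 1.04. The spleen libraries stood above the thymic ones in both genes, and for Nlrc4 replicate 1 stood well above the other splenic ones. Aim2 was higher by 5.57 ± 0.91, Casp4 by 6.19 ± 1.22, Casp1 by 5.18 ± 1.29 and Gsdmd by 1.30 ± 0.26. Nlrc4 had only 9 reads and Casp4 only 7 in the CD8SP group, so the size of their fold changes is uncertain. Over the fits that left out 1 library, Naip2 lay between 4.23 and 6.01, and Casp1 between 3.67 and 6.97. Casp1 lost its call without CD8SP replicate 1 or 3, and Casp4 without CD8SP replicate 1.

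Markers of myeloid cells moved with these differences. Their summed level was 1021, 803 and 3943 CPM in splenic CD4 libraries, against 160, 54.4 and 292 CPM in CD4SP libraries, and 4656, 523 and 441 CPM in splenic CD8 libraries, against 28.2, 243 and 33.8 CPM in CD8SP libraries. The sum of 7 B-cell markers was 616 to 2159 CPM in splenic CD4 and 623 to 4197 CPM in splenic CD8 libraries, against 21.0 to 65.0 CPM in CD4SP and 9.24 to 27.4 CPM in CD8SP libraries. All 12 myeloid and all 7 B-cell markers are in the table, and their part in the splenic levels of the 10 genes was not tested. Splenic CD8 replicate 1, with the most myeloid RNA of its group, had the highest Casp1, Casp4 and Aim2 of it, at 46.8, 18.9 and 120.3 CPM. Splenic CD4 replicate 3, with the most myeloid RNA of its group, had the lowest Casp1, Casp4 and Aim2 of it, at 18.8, 7.73 and 27.3 CPM, and it also held 58630 CPM of 6 erythroid markers, against 2323 and 1070 CPM in replicates 1 and 2.

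**Figure D5:**
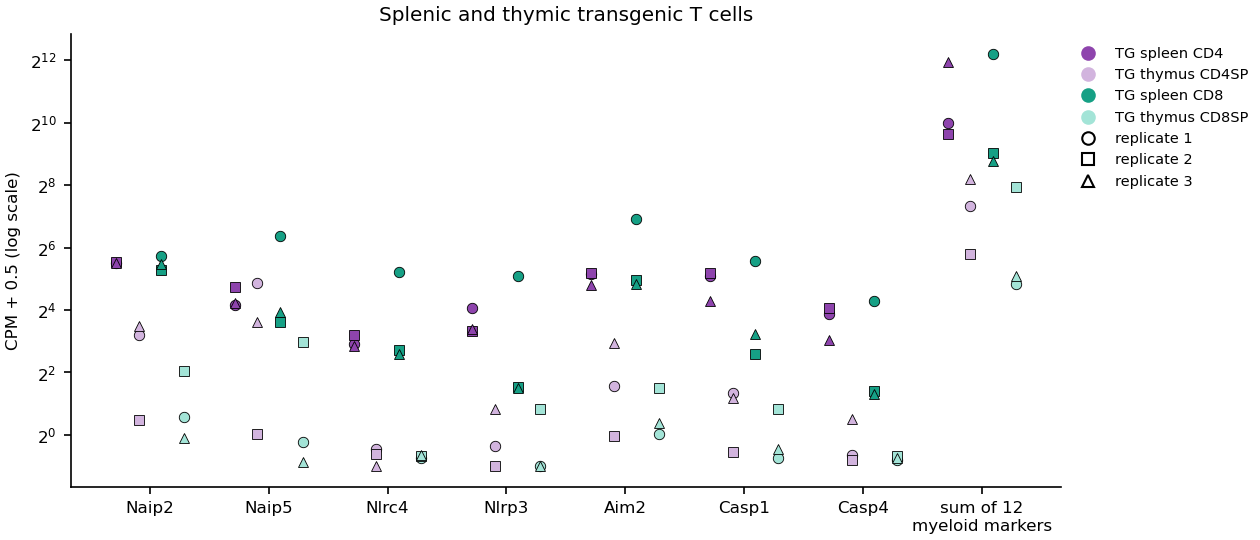
Levels of 7 of the genes and the summed level of 12 myeloid markers in transgenic splenic CD4 and CD8 cells and in transgenic CD4SP and CD8SP thymocytes, 1 point per library, with the replicate given by shape; the vertical axis is CPM + 0.5 on a log scale. The splenic libraries lie above the thymic ones of the same coreceptor for Naip2, Nlrc4, Aim2, Casp1 and Casp4, and splenic CD8 replicate 1 stands above the other CD8 libraries for both the genes and the marker sum.

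Between splenic CD8 and splenic CD4 cells none of 10 members was called, beside 0.105% of 12429 genes called higher and 0.386% called lower; 1 member had an unadjusted p under 0.05 in edgeR's quasi-likelihood test, and DESeq2 called none of them. This comparison turned on replicate 1 of the CD8 cells. Nlrp3 had 33.3, 2.42 and 2.36 CPM in splenic CD8 cells, against 16.1, 9.46 and 9.91 CPM in splenic CD4 cells. With all libraries its fold change was 0.12 ± 1.05, and without CD8 replicate 1 it was -2.29 and called lower. Casp1 was at -0.51 ± 0.80 with all libraries and at -2.001 without that replicate, and Casp4 at -0.70 ± 0.92 and -2.58, both of them called lower only without it.

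Other genes of the pathway were taken from a list of 52, of which 49 were found in the table: sensors, effectors, licensing factors, substrates, receptors, upstream regulators and inhibitors. In DN3, 37 were tested, 9 rose and 14 fell in transgenic cells, with a median log2 fold change of -0.07, beside -0.03 over all genes tested. Of all genes 23.4% were called higher and 22.2% lower there. Of 8 sensors 5 fell and 1 rose. Nlrp1b, a sensor of bacterial proteases, fell to 1.09, 1.09 and 1.05 CPM in transgenic libraries, against 5.94, 4.90 and 4.67 CPM in wild-type libraries (-2.24 ± 0.24, adjusted p = 0.000169 in edgeR's quasi-likelihood test). P2rx7, the ATP-gated channel that licenses Nlrp3, rose to 187, 171 and 260 CPM in transgenic libraries, against 1.70, 2.30 and 1.99 CPM in wild-type libraries (6.71 ± 0.22, adjusted p = 7.65e-07 in edgeR's quasi-likelihood test). Nlrp3 itself had no read in the same transgenic libraries. Gsdme, a gasdermin cleaved by caspase-3, rose to 22.0, 10.5 and 14.9 CPM, against 3.03, 2.94 and 3.11 CPM (2.40 ± 0.27, adjusted p = 0.000216 in the same edgeR test). Its change was opposite in sign to that of Gsdmd. Il18bp, a decoy that binds IL-18, fell to 2.36, 1.89 and 1.84 CPM, against 7.31, 6.26 and 7.67 CPM (-1.78 ± 0.22, adjusted p = 0.000323 in that test).

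The cytokine genes that caspase-1 acts on were low in the thymus. Il1b was at or below 0.0705 CPM in all 6 DN3 libraries and at most 2.33 CPM in any thymic library, that being in transgenic DN1. In splenic CD8 cells it was at 129 CPM in replicate 1, against 1.55 and 3.59 CPM in replicates 2 and 3, and in splenic CD4 cells at 11.5, 15.6 and 12.6 CPM. Il18 in DN3 was at 0.0352, 0.140 and 0.217 CPM in transgenic libraries, against 1.40, 0.754 and 1.19 CPM in wild-type libraries, and it was called lower.

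P2rx7 and Gsdme were called higher in DN and CD8SP cells as well. In total DN cells 40 were tested, 3 rose and none fell, beside 7.47% of all genes called higher and 4.89% called lower. P2rx7 (2.72 ± 0.48, adjusted p = 0.0199) and Gsdme (4.14 ± 0.82, adjusted p = 0.0282) rose in edgeR's quasi-likelihood test. So did Sharpin, a part of a ubiquitin ligase (0.72 ± 0.14, adjusted p = 0.0183, same edgeR test). All 3 calls were lost without transgenic replicate 3 and without wild-type replicate 1 or 2, and that of Gsdme also without wild-type replicate 3. With a term for the letter N, P2rx7 moved to 1.58, Gsdme to 2.10 and Sharpin to 0.53. In DN that term leaves transgenic replicate 2 alone against the wild-type libraries. In CD8SP cells 33 were tested and 2 rose, beside 2.09% of all genes called higher and 2.36% called lower. They were Gsdme (3.54 ± 0.60, adjusted p = 0.0259) and P2rx7 (2.48 ± 0.47, adjusted p = 0.0321, both by edgeR's quasi-likelihood test). Both calls were lost without wild-type replicate 1 or 2, that of Gsdme also without wild-type replicate 3, and that of P2rx7 also without transgenic replicate 1 or 2. With a term for the letter N in CD8SP, P2rx7 was at 2.49 and lost its call. In DP, 32 were tested and in DN1, 47. None was called at either stage by edgeR's quasi-likelihood test, beside 0% of all genes.

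In CD4SP cells 37 pathway genes were tested, 4 rose and 11 fell, with a median log2 fold change of -0.43, beside 0.05 over all genes tested. Of all genes 15% were called higher and 11% lower in CD4SP. The nucleic acid sensor Zbp1 fell to 51.8, 47.1 and 66.3 CPM in transgenic libraries, against 192, 179 and 144 CPM in wild-type libraries (-1.63 ± 0.21, adjusted p = 0.00737 in edgeR's quasi-likelihood test). Ifi203 (-2.20 ± 0.36, adjusted p = 0.0108) and Mndal (-1.76 ± 0.30, adjusted p = 0.0113), relatives of Aim2 whose similar sequences could share reads, fell as well in that edgeR test. So did Gbp2, an interferon-induced GTPase (-1.54 ± 0.27, adjusted p = 0.0120, edgeR). These 4 calls were lost without wild-type replicate 1 or 2. They held without any 1 of the transgenic libraries, with Zbp1 between -1.77 and -1.55 and Gbp2 between -1.79 and -1.34 in those fits. All of these libraries differed from their CD4SP label in Cd4, Cd8a or Il2ra as given above, so leaving out 1 does not remove that difference. In wild-type DP cells Zbp1, Ifi203, Mndal and Gbp2 averaged 30.9, 57.5, 75.9 and 33.6 CPM. They averaged 172, 286, 242 and 110 CPM in wild-type CD4SP and 55, 61.4, 70.7 and 37.3 CPM in transgenic CD4SP cells. The part of cell stage in these falls was not tested.

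In wild-type cells, 36 pathway genes were tested between DP and DN3, of which 9 rose and 16 fell, with a median of -0.277 beside -0.0176 over all genes tested. The shares of all genes called were 28.6% higher and 31.4% lower. Serpinb1a, an inhibitor that restrains inflammatory caspases, fell to 0.479, 0.0407 and 0.0812 CPM in DP, against 16.5, 12.7 and 16.9 CPM in DN3 (-6.32 ± 0.51, adjusted p = 1.2e-05 in edgeR's quasi-likelihood test). Ninj1, which ruptures the membrane after pore formation, fell by 2.19 ± 0.22 (adjusted p = 4.23e-05), and Gbp5, a GTPase that assists inflammasome assembly, by 2.27 ± 0.23 (adjusted p = 4.66e-05, both by edgeR). Cflar, an inhibitor of caspase-8, rose by 1.43 ± 0.15 (adjusted p = 4.26e-05, edgeR).

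Between wild-type CD4SP and DP cells 35 pathway genes were tested, and 20 rose and 1, Hmgb1, fell, with a median of 0.903 beside -0.00565 over all genes tested. The shares of all genes called were 23.4% higher and 20.5% lower. The IL-18 receptor chains Il18r1 (5.16 ± 0.33, adjusted p = 4.62e-05) and Il18rap (6.79 ± 0.46, adjusted p = 5.34e-05, with 6 reads in the DP libraries) rose, as did P2rx7 (3.64 ± 0.16, adjusted p = 1.19e-05) and Zbp1 (2.52 ± 0.16, adjusted p = 4.43e-05), all by edgeR's quasi-likelihood test. Between CD8SP and DP, 32 were tested, 15 rose and 4 fell, with a median of 0.505 beside -0.0268 over all genes. Here 20.8% of all genes were called higher and 16.9% lower. Il18r1 rose by 2.93 ± 0.37 (adjusted p = 0.00141), Gbp5 by 2.23 ± 0.30 (adjusted p = 0.00164), Zbp1 by 1.43 ± 0.21 (adjusted p = 0.00229) and Irgm1, an interferon-induced GTPase, by 1.52 ± 0.23 (adjusted p = 0.00257), again in edgeR's test.

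In the splenic CD4 comparison 44 pathway genes were tested, 21 rose and 2 fell, and in the splenic CD8 comparison 39 were tested, 24 rose and 1 fell. The medians were 1.37 in splenic CD4, beside -0.0424 over all genes, and 1.51 in splenic CD8 cells, beside -0.0265. Of all genes 12.5% were called higher and 12% lower in splenic CD4, and 17.2% and 20.1% in splenic CD8 cells. Of the sensors, 8 of 10 rose in splenic CD4 and 7 of 9 in splenic CD8 cells. Gbp5 rose by 3.17 ± 0.43 in splenic CD4 (adjusted p = 0.00923) and by 3.85 ± 0.38 in splenic CD8 cells (adjusted p = 0.00112), and Myd88, the adaptor of Toll-like and IL-1 receptors, by 1.68 ± 0.26 (adjusted p = 0.0109) and 1.76 ± 0.18 (adjusted p = 0.00124), all in edgeR's quasi-likelihood test. Zbp1 rose by 1.31 ± 0.21 in splenic CD4 cells (adjusted p = 0.0113, edgeR), a call lost without splenic CD4 replicate 1 or 2. Nlrp10 had 2.57, 2.34 and 1.64 CPM in splenic CD4 cells and no read in the CD4SP libraries, and its call was lost without the same replicates. In splenic CD8 cells Irgm1 rose by 1.41 ± 0.17 (adjusted p = 0.00206), and Hmgb1, a chromatin protein that acts as a danger signal outside cells, fell by 2.41 ± 0.23 (adjusted p = 0.0010), by edgeR. Between splenic CD8 and CD4 cells 44 were tested. P2rx7 alone was called, lower in CD8 cells (-2.37 ± 0.30, adjusted p = 0.0465, edgeR), beside 0.386% of all genes called lower and 0.105% higher. That call was lost in 5 of the 6 fits without 1 library, the exception being that without splenic CD8 replicate 1. These changes stand beside the myeloid and B-cell marker sums of the same libraries given above.

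The genotype difference of 38 pathway genes was compared between DN3 and DP. It was higher in DN3 for 3 and lower for 3, beside 5.29% of all genes called higher and 4.88% called lower. The interaction was 1.19 ± 0.22 for Cflar (adjusted p = 0.00795) and -1.22 ± 0.23 for Zbp1 (adjusted p = 0.00925) in edgeR's quasi-likelihood test. For Ninj1 it was -1.25 ± 0.32 (adjusted p = 0.0303) and for Nfkb1, a subunit of NF-kappa B, 0.73 ± 0.19 (adjusted p = 0.0352) in that edgeR test, and these last calls were lost in most of the fits that left out 1 library. Between CD4SP and CD8SP none of 39 was called, beside 0.024% of all genes called higher and 0.008% called lower.

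Over the 40 libraries the genes whose log2(CPM + 0.5) was most like that of a member, by Pearson's r, were as follows. They are given as a description, since the libraries share groups, depth and cell makeup. Naip5 and Naip6 were each other's nearest, with an r of 0.971, and Naip2 was the third nearest of Naip6, with 0.928. The nearest of Naip2 was Ifi30, a lysosomal reductase, with 0.953. Nlrp3 was nearest to Mefv, which encodes the sensor pyrin, with 0.977, and to Tlr13, a sensor of bacterial RNA, with 0.974. Nlrc4 was nearest to Klhl14, with 0.973, Casp4 to Crybg3, with 0.939, Pycard to Atg4d, an autophagy protease, with 0.940, and Gsdmd to Ginm1, with 0.877. Casp1 was nearest to Prss30, with 0.956. Aim2 was nearest to Tmem38b, with 0.939, Eci1, with 0.920, and Zfp781, with 0.907, none of which is another member. Between members, Casp1 and its neighbour Casp4 had an r of 0.897. Aim2 had an r of 0.72 with Casp1 and with Casp4, 0.528 with Nlrc4, 0.506 with Gsdmd and 0.449 with Nlrp3. With Naip2, Naip5 and Naip6 its r was 0.296, 0.126 and 0.188, and with Pycard -0.309.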

How the data were processed

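RNA-seq of sorted T cells was analysed from the deposited table of read counts per gene, unscaled per the file headers, and the deposited FPKM values of the same libraries. Per the labels' protocols total RNA was used. The submitters' processing notes name mm9 and mm10 as builds, and MACS2, Bowtie2, HISAT and DESeq2 as tools, with neither versions nor roles. How reads that fit several genes were counted is not stated. From the table, 4 per-sample columns (2 of them counts) that could not be tied to a sample were left out. The 5 anti-LMO2 ChIP libraries and the input library were not used here. Of the gene names, 25 were turned into dates and 3 were duplicated, none of them a gene described.

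Counts were fitted with edgeR 4.0.16 in R 4.3.3 (TMM, filterByExpr with a minimum of 10 reads and 15 in total, robust quasi-likelihood, prior count 0.125, Benjamini-Hochberg, threshold 0.05) over the groups compared, without a replicate block. DN1 was fitted with all 40 libraries. Standard errors were the fold change over the root of F. DESeq2 1.42.0 was an alternative. FPKM served only for levels between genes, not for tests. Scripts were tested on simulated counts.

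The 10 genes and the gene lists were chosen with earlier results of these data known. Named pathway genes were those with the smallest adjusted p in each comparison, 4 at most; Il1b, Il18 and Naip1 were named besides, after their values were seen. Start windows came from RefSeq on GRCm38.p6.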

Additional observations from a re-analysis of the deposited data

Results flagged for a closer look

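By the interaction test the genotype difference of Casp1 was lower in DN3 than in DP, with an interaction of -6.35 ± 1.06 on the log2 scale (adjusted p = 0.00471 in edgeR's quasi-likelihood test over all genes). Casp1 had 0.176, 0.105 and 0.253 CPM in transgenic DN3 libraries, against 12.4, 12.9 and 15.3 CPM in wild-type DN3 libraries, and in DP 0, 0.410 and 0.108 CPM in transgenic libraries, against 0.144, 0.163 and 0.122 CPM in wild-type libraries. Leaving out 1 library at a time gave interactions between -6.97 and -4.92, each of them called. In DP the gene had only 11 reads in the transgenic and 10 in the wild-type libraries, so a fall there could not have been detected at this depth, and the interaction is close to the DN3 change itself, -6.20 ± 0.30. Since Casp1 was chosen with its fall in DN3 known, the test is a description.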

How the results depend on the processing

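Without 1 library at a time, the number of genes called ranged from 3800 to 6185 in DN3 (5497 with all), from 179 to 3146 in DN (1547), from 0 to 906 in DP (0), from 38 to 4329 in CD4SP (3132) and from 9 to 724 in CD8SP (520), with 0 in DN1. In wild-type cells it ranged from 2163 to 5495 between CD8SP and DP (4408). In transgenic cells it ranged from 461 to 3227 between splenic CD4 and CD4SP (3085), from 2626 to 5354 between splenic CD8 and CD8SP (4546) and from 0 to 1289 between splenic CD8 and CD4 (61). The interactions ranged from 352 to 2598 for DN3 against DP (1266) and from 0 to 611 for CD4SP against CD8SP (4). Of the members, 7 stayed called in DN3, while the number ranged from 0 to 5 in DN, 0 to 1 in DP, 0 to 4 in CD4SP and 0 to 1 in CD8SP. It ranged from 4 to 5 between wild-type DP and DN3, 4 to 7 between CD4SP and DP, and 1 to 3 between CD8SP and DP. In the spleen comparisons it ranged from 0 to 6 for CD4, 4 to 8 for CD8 and 0 to 3 between them, and in the interactions from 1 to 2 and from 0 to 0.

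DESeq2 called 2625 genes in DN, 618 in DP, 1293 in CD8SP, 3 in DN1, 810 between splenic CD8 and CD4, and 2182 and 673 in the interactions, with 5 members in DN, 3 in CD4SP and 2 in the DN3 interaction. A fit of all 40 libraries called 2644 genes in DN3, 695 in DP, 5723 in CD4SP, 6867 and 7722 in the splenic CD4 and CD8 comparisons, 1164 between them, and 553 and 500 in the interactions. Its members called were 1 in DN, 3 in CD4SP, 2 between wild-type DP and DN3, 1 between CD8SP and DP, and 10 in splenic CD8. Without a filter the CD4SP against CD8SP interaction called 32 genes. Library totals in place of TMM, chosen after seeing the data, called 18 there and 24 between splenic CD8 and CD4. They moved the median of all genes by -0.127 in DN3, -0.172 between wild-type DP and DN3 and -0.107 in the splenic CD4 comparison, smaller than any called fold change given there, and reversed no reported member. A term for the letter N called 198 genes in DN, with 0 members, and 2 members in CD4SP. In CD4SP it left transgenic replicate 2 alone against the wild-type libraries and reversed Naip2 to -1.16, Naip5 to -0.93 and Naip6 to -1.05. There it moved Aim2 to -5.45. It could not be fitted in DN3, where no library carries the letter.

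In no comparison did all 3 same-numbered pairs correlate above 0.1 in their deviations from the group means. The nearest were total DN (0.0872, 0.104 and 0.206) and wild-type CD8SP against DP (0.458, 0.486 and 0.0867), where the pairs were all positive, while DN3 had -0.175, 0.0558 and 0.228. With the replicate number as a block, 1362 genes were called in CD4SP, 798 in CD8SP, 2009 between splenic CD4 and CD4SP, 0 between splenic CD8 and CD4 and 0 in the CD4SP against CD8SP interaction, with 0 members in DN and 3 in splenic CD4. Under the block Nlrp3 reversed to -1.03 between splenic CD8 and CD4, and so it did without splenic CD4 replicate 2 (-0.035) and without splenic CD8 replicate 1 (-2.29); over the fits without 1 library it ranged from -2.286 to 0.610. Aim2 reversed to 1.44 in the DN3 against DP interaction without transgenic DP replicate 3, in a range from -3.905 to 1.438. The cause of these changes was not tested. The planned peak alternatives were not run. Reads of Nlrp3, Nlrc4 and Casp4 in the thymus were too few for differences to be detectable at this depth in most stages.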
